A study of Mus musculus with 24 samples.

Results

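mmu-miR-204 and mmu-miR-211 are 2 microRNAs of a single seed family, selected on their relative intensities and detection p-values over all 12 groups of the study. They are 2 of the 558 mouse miRNA probes on the array, each matched by its exact name. Because those readings chose them, their levels and differences are given as descriptions, with standard errors and without p-values.

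The arrays profiled 3 mouse mammary carcinoma lines, described in the labels as highly metastatic (4T1), systemically invasive (4TO7) and nonmetastatic (67NR). Each line grew for 6 days in 3D organotypic culture in a rigid or a compliant microenvironment, and was treated either with TGF-beta or with a compound that inhibits its type I receptor, called the inhibitor below. All 12 combinations had 2 arrays, named set 1 and set 2, and set 1 is given before set 2 below. The 12 groups were thus 4T1 rigid with TGF-beta, 4T1 rigid with inhibitor, 4T1 compliant with TGF-beta, 4T1 compliant with inhibitor, and the same 4 conditions of 4TO7 and of 67NR. Every culture received either TGF-beta or the inhibitor, so the comparison of the treatments has no untreated arm. Each degree of invasiveness was represented by a single line, so that line and metastatic capacity cannot be told apart. The labels do not say whether set 1 and set 2 came from separate cultures, and the spread between them may be technical.

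miRNAs guide Argonaute proteins to messenger RNAs that pair with the seed, bases 2 to 8 of the mature strand, and lower the output of those messages. miR-204 and miR-211 lie within genes of TRPM ion channels and are best known from the retinal pigment epithelium, the lens and, for miR-211, pigment cells, where it is produced together with Trpm1. In osteoblast precursors they restrain Runx2, a transcription factor of bone formation that breast cancer cells can also use. In human retinal pigment epithelium they were reported to act on a TGF-beta receptor and on the Snail-family factor SNAI2, both of which take part in the epithelial-mesenchymal transition.

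The mature strands are shown because their likeness bears on what the 2 probes can tell apart. They come from RefSeq on GRCm38.p6, with the seed in capitals, and both names matched the table. The array gives the names without an arm, and the unarmed names were read here as the 5p strands.
miR-204-5p: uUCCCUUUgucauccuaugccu
miR-211-5p: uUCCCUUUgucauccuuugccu
Counted from the 5′ end, the strands are identical at 21 of 22 positions and differ by the substitution A17U, outside the seed. Of 1679 mature mouse names in the RefSeq table, 3 share the seed UCCCUUU. The third is miR-7670-3p, and no array probe has that name. The 3p strands differ at 7 of 21 positions, and the array held no probe named for either of them.

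The hairpins differ in length. The 5p strand is in capitals in each.
Mir204 hairpin: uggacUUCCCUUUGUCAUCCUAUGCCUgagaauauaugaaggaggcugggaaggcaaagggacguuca
Mir211 hairpin: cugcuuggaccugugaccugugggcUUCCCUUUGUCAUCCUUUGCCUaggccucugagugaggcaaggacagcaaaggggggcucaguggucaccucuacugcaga
The Mir204 hairpin has 68 bases at chr19:22750605-22750672 on the plus strand, inside the span of Trpm3 (chr19:22137797-22995410). The mature 5p strand occupies chr19:22750610-22750631. The Mir211 hairpin has 106 bases at chr7:64205806-64205911 on the plus strand, inside the span of Trpm1 (chr7:64153835-64269772), and its 5p strand occupies chr7:64205831-64205852. The genes are known as intronic miRNA hosts, and exon positions were not used here.

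Both probes were read above background on every array. The deposited relative intensity is the sample signal in the dye DY649 over a synthetic reference in DY547, background-subtracted and on a linear scale. For mmu-miR-204 the detection p, a p-value for presence above background, was at most 1.53e-13 on any of the 24 arrays, and for mmu-miR-211 it was at most 9.37e-11. The stated error of an intensity was 2.72% to 8.57% for mmu-miR-204 (median 4.40%) and 2.62% to 12.8% for mmu-miR-211 (median 5.30%), beside a median of 5.78% over all detected probe readings. No spot of either carried a fail code. The arrays detected 313 to 357 of 558 miRNA probes, their unnormalized median log2 intensity was 7.29 to 7.87, and arrays of the same group correlated at r = 0.996 to 0.999 over probes.

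mmu-miR-204 read lowest in 4T1. Under rigid conditions it had relative intensities of 395 and 320 with TGF-beta, against 299 and 327 with the inhibitor. Under compliant conditions it had 444 and 363 with TGF-beta, against 354 and 396 with the inhibitor. The treatments overlapped under both conditions.

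In 4TO7, rigid cultures had mmu-miR-204 at 400 and 436 with TGF-beta, against 402 and 435 with the inhibitor, which are nearly the same pairs of values. Compliant cultures had 465 and 543 with TGF-beta, against 395 and 410 with the inhibitor. The 2 compliant TGF-beta arrays were the highest of this line on the unnormalized scale. The treatments did not overlap there, but the quantile-normalized log2 values did, at 8.91 and 8.86 with TGF-beta against 8.86 and 8.82 with the inhibitor.

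The nonmetastatic 67NR cells had the highest mmu-miR-204 readings. Rigid cultures had 696 and 766 with TGF-beta, against 749 and 695 with the inhibitor. Compliant cultures had 769 and 737 with TGF-beta, against 906 and 607 with the inhibitor. The compliant inhibitor group alone held the highest and the lowest of the 8 arrays of 67NR, and its spread covered all other values of the line.

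mmu-miR-211 followed the same order. In 4T1 it had 374 and 332 in rigid cultures with TGF-beta, against 296 and 321 with the inhibitor. Compliant 4T1 cultures had 440 and 347 with TGF-beta, against 369 and 416 with the inhibitor. The rigid TGF-beta and inhibitor arrays did not overlap, while the compliant ones did.

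In 4TO7, mmu-miR-211 had 394 and 423 in rigid cultures with TGF-beta, against 412 and 436 with the inhibitor. Compliant 4TO7 cultures had 440 and 576 with TGF-beta, against 389 and 411 with the inhibitor. The treatments overlapped in rigid cultures and did not overlap in compliant ones, where set 2 with TGF-beta was the highest array of the line.

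In 67NR, mmu-miR-211 had 691 and 737 in rigid cultures with TGF-beta, against 709 and 690 with the inhibitor. Compliant 67NR cultures had 741 and 722 with TGF-beta, against 865 and 613 with the inhibitor. As with mmu-miR-204, the compliant inhibitor arrays spanned all other values of 67NR.

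**Figure D1:**
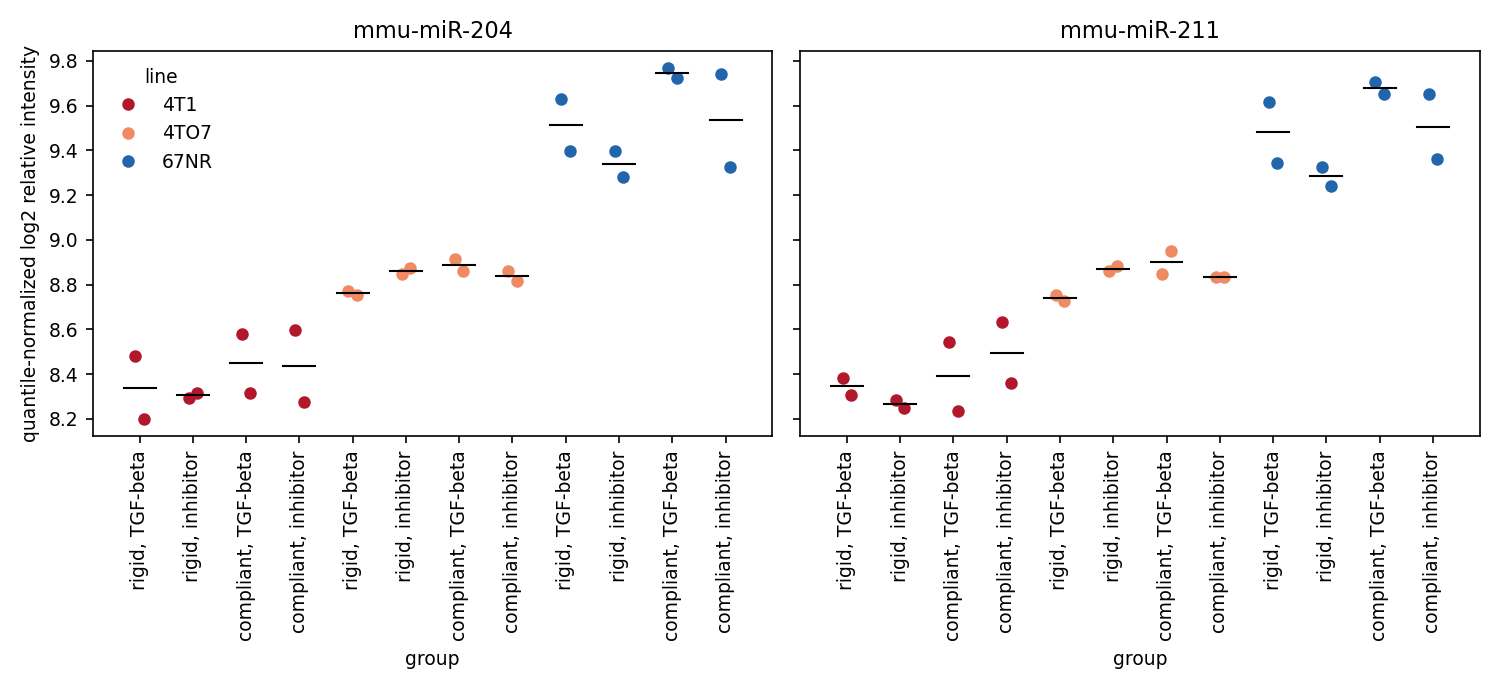
Quantile-normalized log2 relative intensity of mmu-miR-204 (left panel) and mmu-miR-211 (right panel) in each of the 12 groups; points are the 2 arrays of a group and bars their mean. Lines run from 4T1 through 4TO7 to 67NR, and all 8 arrays of 67NR lie above the other 16 for both probes.

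The lines differed more than the treatments did. After quantile normalization over the 558 miRNA probes, mmu-miR-204 averaged 8.38 ± 0.15 on the log2 scale in 4T1, 8.84 ± 0.05 in 4TO7 and 9.53 ± 0.20 in 67NR (SD, n = 8 arrays each). mmu-miR-211 averaged 8.37 ± 0.14 in 4T1, 8.84 ± 0.07 in 4TO7 and 9.49 ± 0.19 in 67NR (SD, n = 8 arrays each). The 8 arrays of each line overlapped with those of no other line, for either probe. On the unnormalized scale 67NR also stood clear of the other lines, at 607 or more against 543 or less in 4TO7 for mmu-miR-204, whereas 4T1 (299 to 444) overlapped with 4TO7 (395 to 543).

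Between the outermost lines, mmu-miR-204 was lower in 4T1 than in 67NR by a log2 difference of -1.15 ± 0.07 (SE of the limma fit over 12 groups, 12 residual degrees of freedom), or 2.22-fold. mmu-miR-211 gave -1.11 ± 0.06, or 2.16-fold lower in 4T1. The median difference of the 365 tested probes between these lines was -0.22, so the 2 members stood at -0.93 and -0.90 relative to it. Ranked from the most negative difference, they held places 2 and 3 of 365. By size without sign they held places 35 and 39. An adjusted p under 0.05 (limma, Benjamini-Hochberg over the tested probes) was reached by 2 of 2 members and by 89.6% of all tested probes, a background against which the members' count says nothing, all the more as the readings chose them.

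The line 4TO7 lay between. Its difference from 67NR was -0.70 ± 0.07 for mmu-miR-204 and -0.65 ± 0.06 for mmu-miR-211 on the log2 scale, 1.62-fold and 1.57-fold lower in 4TO7. With the median of all tested probes at -0.15, these were -0.54 and -0.50 relative to it, at places 10 and 17 from the most negative. By size without sign the places were 50 and 59. Both members were among the 86.8% of probes called here. Between 4T1 and 4TO7 the difference was -0.45 ± 0.07 for mmu-miR-204 and -0.46 ± 0.06 for mmu-miR-211, or 1.37-fold and 1.38-fold lower in 4T1. The median of all tested probes was -0.07, the members held places 9 and 8 (37 and 35 by size without sign), and both were among the 63.0% called. Without normalization between arrays the difference was -0.27 for each member, or -0.39 and -0.38 relative to the median of all tested probes in that fit.

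The arrays lay on 5 slides, none of which held all groups. Pairs of arrays from a single slide that differed in line and matched in microenvironment and treatment, some of which share an array, gave the same direction. For mmu-miR-204 the 3 such pairs of 4T1 and 67NR differed by -1.47 to -1.14, the 4 pairs of 4TO7 and 67NR by -0.65 to -0.46, and the 2 pairs of 4T1 and 4TO7 by -0.57 and -0.22. For mmu-miR-211 the corresponding ranges were -1.42 to -1.11, -0.62 to -0.44, and -0.44 and -0.20. These are normalized values, and the sizes depended on the normalization. Without it, the pairs of 4T1 and 67NR differed by -1.19 to -0.73 for mmu-miR-204 and -1.06 to -0.71 for mmu-miR-211. The pairs of 4TO7 and 67NR differed by -0.90 to -0.62 and -0.80 to -0.66, and those of 4T1 and 4TO7 by -0.32 and -0.21, and -0.25 and -0.16. With slide as a term of the fit, 4T1 minus 67NR was -1.17 ± 0.09 for mmu-miR-204 and -1.14 ± 0.07 for mmu-miR-211.

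Markers of cell type also moved with the lines. The summed level of 6 epithelial miRNA probes (the miR-200 family and miR-205) was 1564 to 1817 in 4T1, 412 to 564 in 4TO7 and 384 to 411 in 67NR, with 5 of the 6 detected on every array of 4T1 and 1 of 6 in 4TO7 and in 67NR. The summed level of 5 fibroblast and mesenchymal probes was set almost wholly by miR-214, a miRNA of mesenchymal cells, and stood at 7028 to 8858 in 4T1, 8887 to 9626 in 4TO7 and 11931 to 14288 in 67NR. Of these, 3 were detected on every array of 4T1 and of 4TO7, and 4 on every array of 67NR. On the normalized log2 scale miR-214 averaged 12.78 in 4T1, 13.08 in 4TO7 and 13.65 in 67NR, the order of the members. Of 3 muscle probes, whose sum was 328 to 423 in 4T1, 382 to 448 in 4TO7 and 436 to 582 in 67NR, miR-206 was detected on 8 of 8 arrays of 67NR and on 0 of 8 in 4T1 and in 4TO7. The muscle probe miR-208b was detected on every array and miR-1 on none. The 5 blood probes summed to 1262 to 1653 in 4T1, 1430 to 1694 in 4TO7 and 1544 to 1872 in 67NR, with miR-451 detected on every array and the other 4 on none. The liver miRNA miR-122 was detected on every array, at 129 to 144 in 4T1, 133 to 162 in 4TO7 and 155 to 190 in 67NR. The 7 neural and retinal probes summed to 2196 to 2399 in 4T1, 2141 to 2400 in 4TO7 and 2165 to 2674 in 67NR. Of these, miR-184 and miR-9 were detected on every array and miR-124 on none. On the normalized log2 scale miR-184, the highest of them, averaged 10.34 in 4T1, 10.42 in 4TO7 and 10.73 in 67NR. The averages of miR-9 were 8.76, 8.21 and 7.31, the reverse of the members' order. The 2 endothelial probes were detected on no array. The part of these lists in the members' differences was not tested. In bulk RNA, fewer cells that hold a miRNA and less of it per cell cannot be told apart.

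Ordered by mean, the 4 groups of 67NR came highest, the 4 of 4TO7 next and the 4 of 4T1 lowest, for both members. For mmu-miR-204 the highest group was 67NR compliant with TGF-beta, at 9.74, followed by 67NR compliant with inhibitor (9.53), rigid with TGF-beta (9.51) and rigid with inhibitor (9.34). Each of these neighbours overlapped. The step from 67NR rigid with inhibitor to the next group, 4TO7 compliant with TGF-beta (8.89), was 0.45, or 3.36 times the residual SD of 0.134. Within 4TO7, compliant with TGF-beta overlapped with rigid with inhibitor (8.86), which overlapped with compliant with inhibitor (8.84), and rigid with TGF-beta (8.76) lay apart from them by 0.08.

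The step to 4T1 was 0.31, or 2.33 times the residual SD, down to compliant with TGF-beta (8.45). The other 4T1 groups were compliant with inhibitor (8.44), rigid with TGF-beta (8.34) and rigid with inhibitor (8.31), and all neighbours overlapped. For mmu-miR-211 the order differed in a single exchange, as 4T1 compliant with inhibitor (8.50) came before 4T1 compliant with TGF-beta (8.39). Within lines its neighbours overlapped except 67NR rigid with TGF-beta and rigid with inhibitor, the lowest 3 groups of 4TO7, and 4T1 rigid with TGF-beta and rigid with inhibitor. Its steps between lines were 0.38 (67NR to 4TO7) and 0.24 (4TO7 to 4T1), or 3.33 and 2.11 times its residual SD of 0.115. The residual SDs of both members, which are moderated in the limma fit, exceeded 0.0764, the median of the unmoderated residual SDs of all tested probes.

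Neither member was called between TGF-beta and the inhibitor, over all lines or in any of them, except in 67NR under some of the alternatives given below. Over all lines, TGF-beta minus inhibitor was 0.06 ± 0.05 for mmu-miR-204 and 0.05 ± 0.05 for mmu-miR-211 (log2, SE), beside a median of 0.01 over all tested probes. In this comparison 39.5% of tested probes were called in limma and 0 of 2 members. At an unadjusted limma p under 0.05 there were 176 of 365 probes and 0 of 2 members. In 4T1 the differences were 0.02 ± 0.09 and -0.01 ± 0.08, and 31.8% of tested probes but 0 of 2 members were called in limma. The unadjusted limit was passed by 160 of 365 probes and 0 of 2 members. In 4TO7 the differences were -0.03 ± 0.09 and -0.03 ± 0.08, with 21.4% of tested probes and again 0 of 2 members called in limma. The unadjusted limit was passed by 117 of 365 probes and 0 of 2 members. Without normalization between arrays the values were 0.14 and 0.09 in 4T1 and 0.16 and 0.14 in 4TO7. The sign thus turned for both members in 4TO7 and for mmu-miR-211 in 4T1. Relative to the median of all tested probes in that fit, the values were -0.02 and -0.07 in 4T1 and -0.03 and -0.05 in 4TO7.

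In the 67NR cells the difference between the treatments was 0.19 ± 0.09 for mmu-miR-204 and 0.19 ± 0.08 for mmu-miR-211. In limma 11.0% of tested probes were called there and 0 of 2 members. At an unadjusted limma p under 0.05 there were 97 of 365 probes and 1 of 2 members, mmu-miR-211. The single array 67NR compliant with inhibitor, set 2, bore on this value: without it the difference was 0.09 for mmu-miR-204, and without set 1 of that group 0.30. The 2 pairs of 67NR arrays that shared a slide and a microenvironment gave 0.00 and 0.02 for mmu-miR-204, and 0.02 and 0.05 for mmu-miR-211. Without normalization the difference was 0.02 for each, less than in 4T1 and 4TO7. Relative to the median of all tested probes in that fit it was 0.17 for each, more than in 4T1 and 4TO7. Both members were called in 67NR with the authors' value table (0.23 each) and with the set number as a replicate block (0.19 each). The authors' table, which holds 338 probes, gave 61 called there. The block gave 70 of 365, against 40 in the main fit. By the rule given under the processing, the set numbers pair the arrays of 4T1 only, and within 67NR they correlated at -0.092 to 0.282. An F test of whether the TGF-beta difference varied among the lines called 14.5% of tested probes and 0 of 2 members. At an unadjusted limma p under 0.05 it gave 107 of 365 probes and 0 of 2 members.

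Both members averaged slightly lower in rigid than in compliant cultures over all lines, by nearly the same amount. Over all lines, rigid minus compliant was -0.13 ± 0.05 for mmu-miR-204 and -0.14 ± 0.05 for mmu-miR-211, beside a median of 0.01 over all tested probes. The members held places 18 and 17 of 365 from the most negative, and 34 and 31 by size without sign. The call on 1 of 2 members, mmu-miR-211, stands beside 21.9% of tested probes called. With values this close it is no difference between the members, and as the readings chose them it is a description only. The call on mmu-miR-211 held without 4 of the 24 arrays, left out 1 at a time (set 2 of 4T1 compliant with TGF-beta, of 4T1 compliant with inhibitor and of 67NR compliant with inhibitor, and set 1 of 67NR rigid with TGF-beta), and was lost without each of the other 20, at -0.16 to -0.11 in all, and it was lost with slide as a term of the fit (-0.11 ± 0.06), without the filter on undetected probes and without normalization. mmu-miR-204 was called, at -0.16, when set 2 of 4T1 compliant with inhibitor or of 67NR compliant with inhibitor was left out.

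By line, rigid minus compliant in 4T1 was -0.12 ± 0.09 for mmu-miR-204 and -0.14 ± 0.08 for mmu-miR-211, where 7.40% of tested probes were called. In 4TO7 it was -0.05 ± 0.09 and -0.06 ± 0.08, where 2.74% were called. In 67NR it was -0.21 ± 0.09 and -0.21 ± 0.08, where 11.0% were called. Without normalization the 67NR values were -0.04 and -0.05, or -0.16 for each relative to the median of all tested probes in that fit. With slide as a term, mmu-miR-211 in 4TO7 turned to 0.02. Leaving out set 2 or set 1 of a single group moved the 4T1 value to -0.20 or -0.04 for mmu-miR-204 (compliant with inhibitor) and to -0.21 or -0.06 for mmu-miR-211 (compliant with TGF-beta). No line gave a call for either member in the main limma fit. At an unadjusted limma p under 0.05 the count was 0 of 2 in 4T1, 0 of 2 in 4TO7 and 2 of 2 in 67NR. Of the 365 tested probes, 83 passed that limit in 4T1, 62 in 4TO7 and 87 in 67NR. In 67NR the value for mmu-miR-204 lay between -0.32 and -0.11 when the arrays were left out in turn, the ends being set by set 2 and set 1 of the compliant inhibitor group. Without that set 2, the 67NR difference was -0.32 for mmu-miR-204 and -0.29 for mmu-miR-211. Without set 1 of rigid with TGF-beta it was -0.28 for mmu-miR-211. The replicate block, which the data back in 4T1 only, called both in 67NR, at -0.21 each, with 48 of 365 tested probes called there. Pairs on a single slide gave -0.28, -0.10 and 0.16 in 4T1 and -0.16 in 4TO7 for mmu-miR-204, and no slide held such a pair of 67NR.

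The F test for a rigidity effect that varied among lines called 8.22% of tested probes and 0 of 2 members. At an unadjusted limma p under 0.05 it gave 69 of 365 probes and 0 of 2 members. The TGF-beta difference itself was compared between the microenvironments. Rigid minus compliant, it was -0.05 ± 0.11 for mmu-miR-204 and 0.00 ± 0.09 for mmu-miR-211. Of all tested probes 0% were called here in limma, and at an unadjusted p under 0.05 there were 22 of 365 probes and 0 of 2 members.

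**Figure D2:**
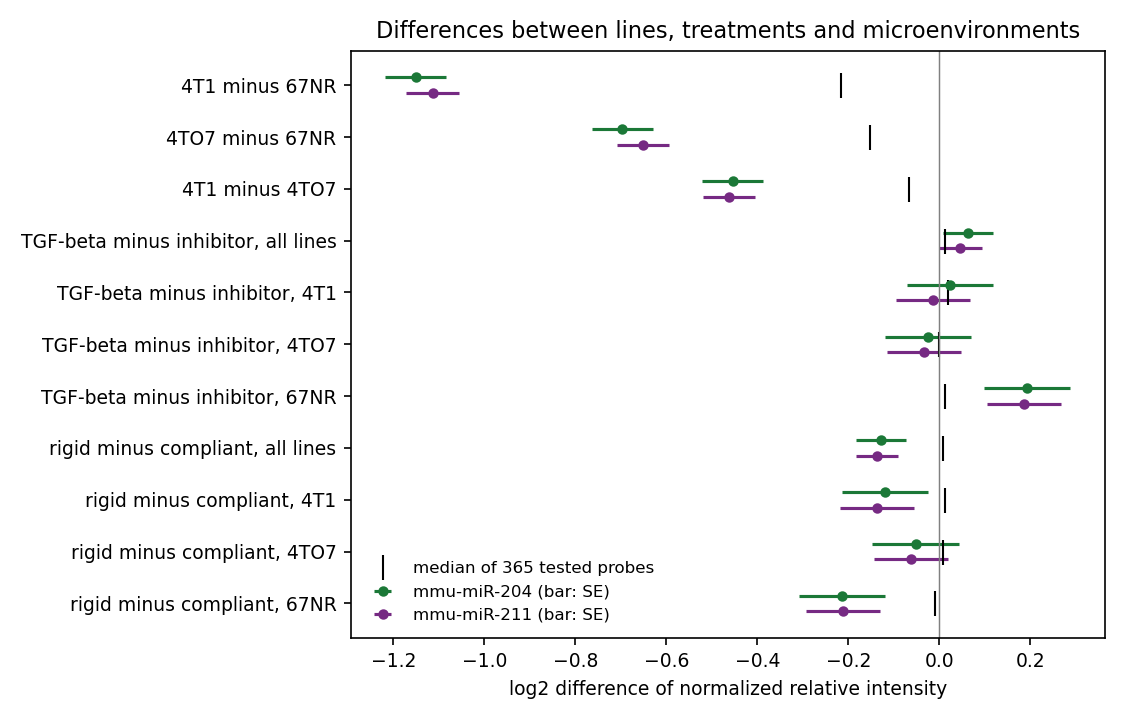
Log2 differences of normalized relative intensity for mmu-miR-204 and mmu-miR-211 (points, bars are SE of the limma fit), with the median of the 365 tested probes as a black tick. The 3 differences between lines run from -1.15 to -0.45, and those of treatment and microenvironment lie between -0.21 and 0.19.

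The 2 probes gave nearly the same number on every array. The unnormalized log2 intensity of mmu-miR-211 minus that of mmu-miR-204 ranged from -0.08 to 0.09, with a mean of -0.01 and an SD of 0.048 over 24 arrays. As a share, the reading of the mmu-miR-211 probe was 94.6% to 106% of that of the mmu-miR-204 probe. On 24 of 24 arrays the gap was within the combined error stated in the files, which was 0.056 to 0.194 on the log2 scale, and mmu-miR-204 was the higher on 16 of 24. Pearson's r was 0.995 over 24 arrays and 0.998 over the 12 group means, a description of points that share arrays and lines.

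By line the gap was 0.00 ± 0.06 in 4T1, 0.00 ± 0.05 in 4TO7 and -0.04 ± 0.03 in 67NR (SD, n = 8 arrays each). By treatment it was -0.03 ± 0.05 with TGF-beta and 0.00 ± 0.04 with the inhibitor (SD, n = 12 arrays each). The probes have no common scale of amount, so equal readings are not equal amounts of the 2 miRNAs. Given strands that differ at the 1 position A17U, whether each probe read its own miRNA cannot be told apart from these files, and probe sequences were not used here.

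**Figure D3:**
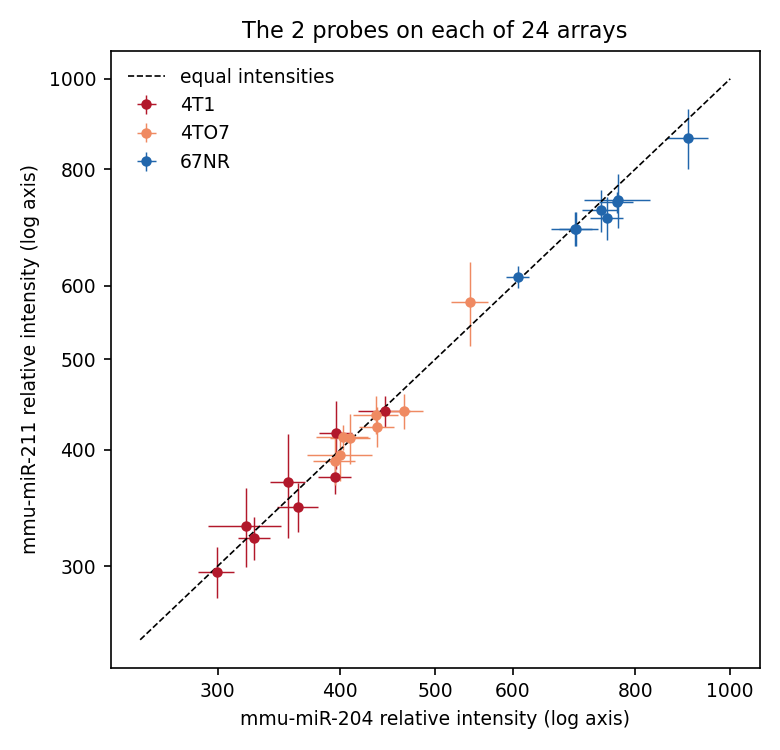
Relative intensity of the mmu-miR-211 probe against that of the mmu-miR-204 probe on 24 arrays, both axes logarithmic, coloured by line, with bars for the error stated in the files and a dashed line of equal intensities. On 24 of 24 arrays the gap between the probes is within their combined stated error, and 67NR takes the upper end, at 607 or more for mmu-miR-204.

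To place this likeness, other pairs of separate probes for miRNAs that differ at a single position were listed, a comparison chosen after the values of the members had been seen. The search covered only the 62 of 558 probes that had been assigned an arm beforehand and so matched to a sequence. They are a selection, and pairs that involve any other probe were not examined. Among these 62 probes there were 12 such pairs, the members included, and in 9 of them both probes were detected on all 24 arrays. The other 8 pairs had SDs of the array-to-array difference between 0.072 and 0.355, with a median of 0.137, and 0 of 8 were below the 0.048 of mmu-miR-204 and mmu-miR-211. The nearest was let-7a with let-7e at 0.072, and the widest miR-106a with miR-17 at 0.355, although all 8 pairs share their seeds. Their mean gaps, without sign, were 0.056 to 3.03 on the log2 scale (median 0.433), beside 0.014 for the members. The position of the differing base was 17 for the members, 9 for let-7a with let-7e and 17 for let-7b with let-7c, whose SD was 0.098.

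**Figure D4:**
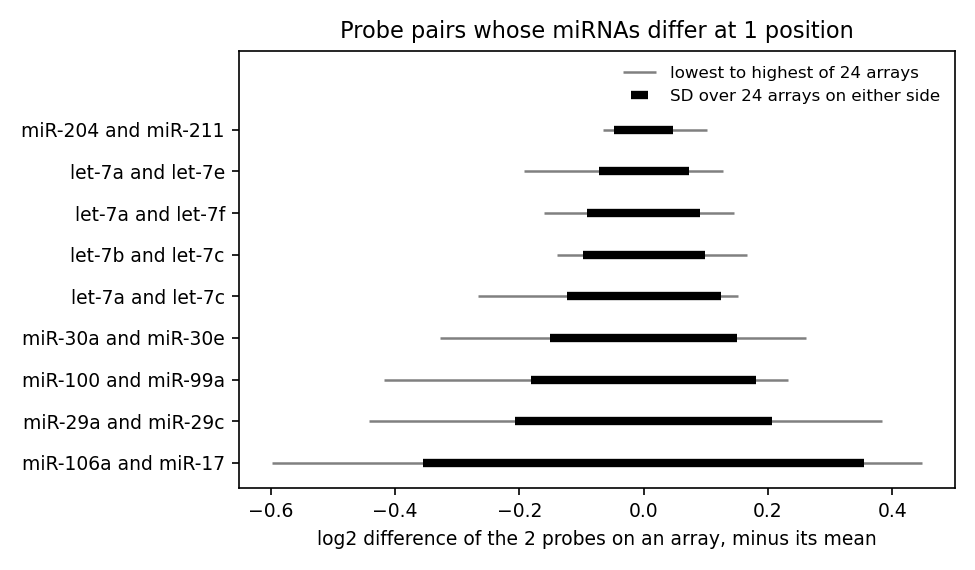
Spread over 24 arrays of the log2 difference between the probes of 9 pairs of miRNAs that differ at 1 position, each centred on its mean; thick bars are the SD on either side and thin lines run from the lowest to the highest array. The pair of miR-204 and miR-211 has the narrowest bar, 0.048, and miR-106a with miR-17 the widest, 0.355.

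Beyond each other, the probes most like the members over the 12 group means came from 353 probes of single miRNAs. For mmu-miR-204 the 5 nearest by Pearson's r were miR-876-3p (0.991), miR-539 (0.986), miR-470, miR-412 and miR-760 (each 0.983). For mmu-miR-211 they were miR-876-3p (0.986), miR-470 and miR-412 (each 0.984), miR-875-3p (0.981) and miR-539 (0.979). All 6 were lower in 4T1 than in 4TO7 and lower in 4TO7 than in 67NR, with differences between -0.62 (miR-470) and -0.38 (miR-875-3p) for 4T1 minus 67NR, beside -1.15 and -1.11 for the members. The points of these correlations share arrays, lines and the normalization. Probes outside these 6 came closer to the members in size. Of the 4 tested fibroblast and mesenchymal probes, 4 were called lower in 4T1 than in 67NR, where 89.6% of all tested probes were called. Among them miR-145 differed by -1.08 ± 0.04 and miR-143, detected on no array of 4T1 or 4TO7, by -1.07 ± 0.03.

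Other miRNAs credited with the members' reported targets and tissues are given as lists, whose counts stand against 89.6% of all tested probes called between 4T1 and 67NR (112 higher and 215 lower in 4T1), 39.5% between TGF-beta and inhibitor and 21.9% between rigid and compliant. The lists were written with earlier results of the data known. Of 10 other miRNAs reported to repress Runx2, 8 were on the array and 4 were tested. Between 4T1 and 67NR, 2 of the 4 were called higher in 4T1 and 1 lower, beside 89.6% of all probes called, with a list median of 0.17 beside -0.22 over all tested probes. miR-338-3p differed by 0.95 ± 0.03 and miR-30c by 0.39 ± 0.05, and miR-34c, which is also a p53 target, by -0.59 ± 0.04. With TGF-beta, 1 of the 4 was called higher and 3 lower than with the inhibitor, beside 39.5% of all probes called, led by miR-30c (-0.30 ± 0.04), and the list median was -0.20 beside 0.01.

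Of 9 other miRNAs that repress transcription factors of the epithelial-mesenchymal transition, 6 were called higher and 2 lower in 4T1 than in 67NR, where 89.6% of all probes were called. The list median was 1.89, or 1.47 with undetected probes set at their bound, since 4 of the 9 were undetected on all arrays of at least 1 line. Most of the higher ones belong to the miR-200 family, which also makes up most of the epithelial probes above, and they largely set the count and the median. Of that family, miR-141 differed by 2.48 ± 0.04. With TGF-beta 2 were called higher and 2 lower, among them miR-34a (0.36 ± 0.03) and miR-30a (-0.32 ± 0.03), and in rigid cultures 1 was called higher and 1 lower.

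Of 8 other miRNAs reported to repress TGF-beta receptors or Smads, 7 were called higher and 1 lower in 4T1 than in 67NR, where 89.6% of all probes were called, and the list median was 1.06. The members of the miR-17 cluster miR-17 and miR-20a differed by 2.77 ± 0.04 and 2.53 ± 0.06. Most of the higher ones belong to that cluster or to a related one (miR-17, miR-20a, miR-18a, miR-93 and miR-106b), and they largely set the count and the median. With TGF-beta 1 was called higher, miR-21 at 0.45 ± 0.05, and 1 lower, miR-26a at -0.40 ± 0.03, with a list median of 0.03. In rigid cultures 0 of the 8 were called higher and 2 lower, miR-26a at -0.13 ± 0.03 and miR-93 at -0.09 ± 0.03.

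Of 5 other miRNAs of pigment cells and the eye, 4 were tested, and 3 were called higher and 1 lower in 4T1 than in 67NR, where 89.6% of all probes were called, with a list median of 2.23. The 3 higher ones, miR-182, miR-96 and miR-183, belong to a single cluster and set both the count and the median, while miR-184 differed by -0.39 ± 0.05. Of the 4, 2 were undetected on all arrays of at least 1 line, and with them at their bound the median was 2.21. miR-182, whose cluster is known from sensory organs, differed by 2.89 ± 0.04. With TGF-beta 2 of the 4 were called higher and 0 lower, among them miR-182 at 0.16 ± 0.03, beside 0.06 and 0.05 for the members. In rigid cultures 2 were called lower and 0 higher, among them miR-182 at -0.18 ± 0.03.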

How the data were processed

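The members and the gene lists were chosen with earlier results of these data known. The 24 arrays are 2-dye miRNA arrays with 558 mouse miRNA probes and 35 spike-in probes, on 5 slides. Per the file headers, the authors deposited for each probe a relative intensity (DY649 over DY547, linear, background-subtracted and corrected for labelling), an error on the intensity scale (a signal per probe), a detection p-value and a fail code. A value table that the authors deposited gives log2 intensity for 338 probes, equal to the log2 of the deposited intensity plus 1 constant per array (-0.287 to 0.236). Scanner settings are not given in the sources used here.

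Quantile normalization of log2 intensities over the 558 probes used limma 3.58.1 (R 4.3.3). Probes detected (p under 0.05) on both arrays of at least 1 group, with a fail code on fewer than 12 arrays, were kept (365). A model with 12 group means gave contrasts with equal weight per group, moderated by eBayes with a trend, adjusted by Benjamini-Hochberg. The procedure was run on simulated data with independent noise, built from the fitted group means and spreads. That run held no slide or culture effects, so it checks the calculation only. The number of arrays limits the precision. Genes are named by design rules: the members, probes of like seed, the 5 probes of highest Pearson r, and at most 3 called members of a list per comparison. Groups came from the labels. Across the 66 pairs of groups, deviations of equal set numbers correlated at -0.334 to 0.486 (median 0.088), at 0.230 to 0.486 within 4T1, -0.156 to 0.379 within 4TO7 and -0.092 to 0.282 within 67NR. By a minimum of 0.1 in every pair of groups, the set numbers pair the arrays of 4T1 only, on the data alone. The replicate block changed no call on the members in 4T1. Alternatives were other scalings, filters, blocks, the authors' table and leaving out each array.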

Additional observations from a re-analysis of the deposited data

Results flagged for a closer look

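Over both members, 30 sets of arrays formed by line, by line with treatment or by line with microenvironment were examined, and 4 had an array far from the others, by the gap to its neighbour over the whole range. The limit used for each set size is one that chance passes in about 1 in 20 sets. For mmu-miR-204 the array 4T1 compliant with inhibitor, set 1, stood at 8.60 against 8.32 for its neighbour among the inhibitor arrays of 4T1, a gap of 0.868 of the range. On the unnormalized scale that array was below its partner, not above it. The array 67NR compliant with inhibitor, set 2, was low for both members among the compliant arrays of 67NR, at 9.32 against 9.72 for mmu-miR-204 (0.901 of the range) and at 9.36 against 9.65 for mmu-miR-211 (0.847). For mmu-miR-211 the array 4TO7 compliant with TGF-beta, set 2, was high among the compliant arrays of 4TO7, at 8.95 against 8.85 (0.881).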

How the results depend on the processing

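The differences between lines kept their sign and their call under 8 of 8 alternatives and in 24 of 24 fits without 1 array, for both members. Their sizes moved under 3 scalings. Scaling by the median of the probes detected on every array gave -0.55 (mmu-miR-204) and -0.52 (mmu-miR-211) for 4TO7 minus 67NR. No normalization gave -0.27 and -0.27 for 4T1 minus 4TO7, and the authors' value table -0.99 and -0.96 for 4T1 minus 67NR. The cause was not tested.

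With the set number as a replicate block within each line, differences kept their values, and calls appeared for TGF-beta in 67NR (0.19 for each member) and for rigidity in 67NR (-0.21 for each) and, for mmu-miR-204, over all lines (-0.13). The authors' table also called TGF-beta in 67NR for both (0.23 each), and the median of probes detected on every array did so for mmu-miR-211 (0.22), while the median of all probes did not (0.15). For TGF-beta in 67NR, 70 probes were called with the block, 61 with the authors' table and 38 with the median of probes detected on every array, against 40. The block gave 48 for rigidity in 67NR, against 40, and 94 over all lines, against 80.

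Counts of probes called moved by over 1.5 times without normalization: 57 against 144 for TGF-beta over all lines, 41 against 78 in 4TO7, 29 against 116 in 4T1; 13 against 80 for rigidity over all lines, 15 against 40 in 67NR, 2 against 10 in 4TO7, 7 against 27 in 4T1; 141 against 230 for 4T1 minus 4TO7; and 17 against 30 for rigidity between lines. With slide as a block, TGF-beta in 4T1 gave 50 and rigidity 39 over all lines and 12 in 4T1. TGF-beta in 67NR gave 61 with the authors' table and 70 with the replicate block, against 40. Rigidity in 4TO7 gave 21 when scaled by the median of probes detected on every array, 11 by that of all probes, 18 with the block and 18 or 19 without an array of 4T1 compliant with inhibitor. TGF-beta between lines gave 81 with the block against 53. Leaving out 1 array gave as few as 14 for rigidity between lines and 14 in 4T1, and 1 against 0 for TGF-beta between microenvironments.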
